A study of Mus musculus with 20 samples.

Results

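KH2_OSKM, a mouse induced pluripotent stem cell (iPSC) line that the labels grade as poor, was compared with KH2 ESCs, the embryonic stem cell (ESC) line of the same name and origin. The series holds 20 arrays of 10 lines, and 4 of them belong to these lines, 2 per line. KH2_OSKM was made with OSKM, the reprogramming factors Oct4 (gene Pou5f1), Sox2, Klf4 and Myc, and KH2 ESCs are labelled as controls. Both lines grew in 2i medium without feeder cells, received no treatment, and gave total RNA for Agilent arrays in 1 colour. The names give the KH2 origin. KH2 is known as a mouse ESC line that carries a doxycycline-controlled transactivator at Rosa26 and a docking site for transgenes beside Col1a1, alleles that the labels do not describe. No label says from which cells KH2_OSKM was derived, whether it is 1 clone, its passage, or whether its factors are still expressed. Each side is a single line, so a difference between the lines cannot be told apart from a difference between iPSCs and ESCs. Whether a line's 2 arrays hold RNA of separate cultures is not stated, so p-values measure only the spread between arrays, which may be technical.

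Genes were kept by a rule that used the arrays of both lines: of 27161 genes tested, 17874 (65.8%) had no overlap between the 2 KH2_OSKM and the 2 KH2 ESCs arrays, with 28.3% higher and 37.5% lower in KH2_OSKM. A gene is called here where, in addition, limma's adjusted p was under 0.05. Levels are log2 of the processed signal over the array's 75th percentile, so 0 is the signal of that percentile and a difference of 1 is 2-fold. Differences are KH2_OSKM minus KH2 ESCs, with a standard error (SE) from limma. Levels of different genes come from different probes and are not compared with each other. Folds given as "at least" are approximate bounds, as described under the processing.

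The root mean square gap between the KH2_OSKM arrays was 0.92, against 0.49 to 0.72 in the other 9 lines. Their median absolute gap was 0.16, within the 0.10 to 0.20 of the other lines. On KH2_OSKM array 1, 77.2% of probes were well above background, the highest share of the 20 arrays, and on array 2 it was 58.3%. The KH2 ESCs arrays had 59.8% and 65.4%. As 697 genes were above background on KH2_OSKM array 1 alone of the 4 arrays, some results are also given without that array. Other results can change without it too. Array 1 of each line lay on the same slide and array 2 of each line on 2 other slides.

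Mouse ESCs and iPSCs in 2i medium are held in a naive pluripotent state by inhibitors of MEK, the kinase above ERK, and of GSK3, which restrains Wnt signalling. Their identity rests on a network of transcription factors around Oct4, Sox2 and Nanog. DNA methylation silences germline genes and marks imprinted genes, which are read from 1 parental copy. The maternally read noncoding RNAs of the imprinted Dlk1-Dio3 locus, Meg3 among them, are known to be silenced in some mouse iPSC lines. The sequences of 3 probes in that locus and of 4 promoters of germline genes are shown first, since both groups recur below.

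The 3 probes report the noncoding RNAs Meg3, 6430411K18Rik (which runs antisense to Rtl1) and Mirg, a miRNA host. They lie on the plus strand of chromosome 12 at chr12:110809678-110809737, chr12:110830889-110830948 and chr12:110987569-110987628 in mm9, as the files give them. No base is in capitals, since no motif was searched in them.

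Meg3: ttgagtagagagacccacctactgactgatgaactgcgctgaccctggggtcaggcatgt
6430411K18Rik: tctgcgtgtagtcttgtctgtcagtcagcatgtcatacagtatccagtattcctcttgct
Mirg: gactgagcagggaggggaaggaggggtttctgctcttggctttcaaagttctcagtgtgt

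Promoters of the germline genes cover 300 bases around the gene's start, on the gene's strand, in RefSeq's GRCm38.p6, a later build than that of the array files. Those of Mov10l1, Stk31, Tex101 and Mael are shown because their genes are described below as higher in KH2_OSKM. They were searched on both strands for TCCCGC, the core of the E2F6 motif, and CACGTG, the E-box; the motifs do not overlap each other. Capitals mark every match, in either orientation. Of 14 germline genes called higher that have a promoter in the table, 8 (57.1%) held TCCCGC, 7 CACGTG and 4 (28.6%) both, against 22%, 8.09% and 2.65% of 27025 genes with a promoter. A gene with several promoters in the table counts as holding a motif if any of them does. Taking each gene's promoter with most CpG, the median number was 17.5, against 8.0 over the 27025 genes. Germline genes that were not called were not set beside these. Mov10l1 and Stk31 hold the E-box, Mael both motifs and Tex101 neither. They lie at chr15:88982744-88983043 (plus strand, Mov10l1), chr6:49395289-49395588 (plus strand, Stk31), chr7:24672001-24672300 (minus strand, Tex101), chr1:166238695-166238994 (minus strand, Mael).

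Mov10l1: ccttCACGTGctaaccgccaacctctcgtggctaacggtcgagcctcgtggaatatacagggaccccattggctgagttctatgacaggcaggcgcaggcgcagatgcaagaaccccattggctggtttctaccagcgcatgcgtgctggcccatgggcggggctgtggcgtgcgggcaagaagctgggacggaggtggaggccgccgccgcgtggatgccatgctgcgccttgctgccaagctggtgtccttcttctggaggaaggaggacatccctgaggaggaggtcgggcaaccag
Stk31: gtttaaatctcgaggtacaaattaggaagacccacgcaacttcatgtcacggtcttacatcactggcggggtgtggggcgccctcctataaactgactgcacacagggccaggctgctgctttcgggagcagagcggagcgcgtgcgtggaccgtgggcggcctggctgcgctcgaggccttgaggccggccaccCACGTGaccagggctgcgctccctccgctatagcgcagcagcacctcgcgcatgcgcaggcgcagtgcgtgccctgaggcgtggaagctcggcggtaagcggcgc
Tex101: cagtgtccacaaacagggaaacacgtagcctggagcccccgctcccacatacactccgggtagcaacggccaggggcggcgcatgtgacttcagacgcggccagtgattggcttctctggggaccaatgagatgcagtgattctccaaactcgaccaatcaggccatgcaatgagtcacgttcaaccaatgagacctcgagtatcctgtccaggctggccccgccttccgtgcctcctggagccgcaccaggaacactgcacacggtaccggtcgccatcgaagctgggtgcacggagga
Mael: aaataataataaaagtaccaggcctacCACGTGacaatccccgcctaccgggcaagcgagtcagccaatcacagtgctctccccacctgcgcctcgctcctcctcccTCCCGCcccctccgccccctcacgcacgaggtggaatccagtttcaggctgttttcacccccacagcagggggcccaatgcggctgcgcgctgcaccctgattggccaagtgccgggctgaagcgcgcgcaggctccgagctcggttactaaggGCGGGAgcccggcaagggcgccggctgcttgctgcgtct

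Of the 27161 genes, 11952 (44.0%) were called, 5276 (19.4%) higher and 6676 (24.6%) lower in KH2_OSKM. At least 2-fold and called were 2500 (9.20%) higher and 1522 (5.60%) lower. The median difference of all genes was -0.04, so the list medians below stand against a value close to 0. With so many genes called, a list is read against these shares. The plot of calls by list sets all 28 lists beside them.

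**Figure D1:**
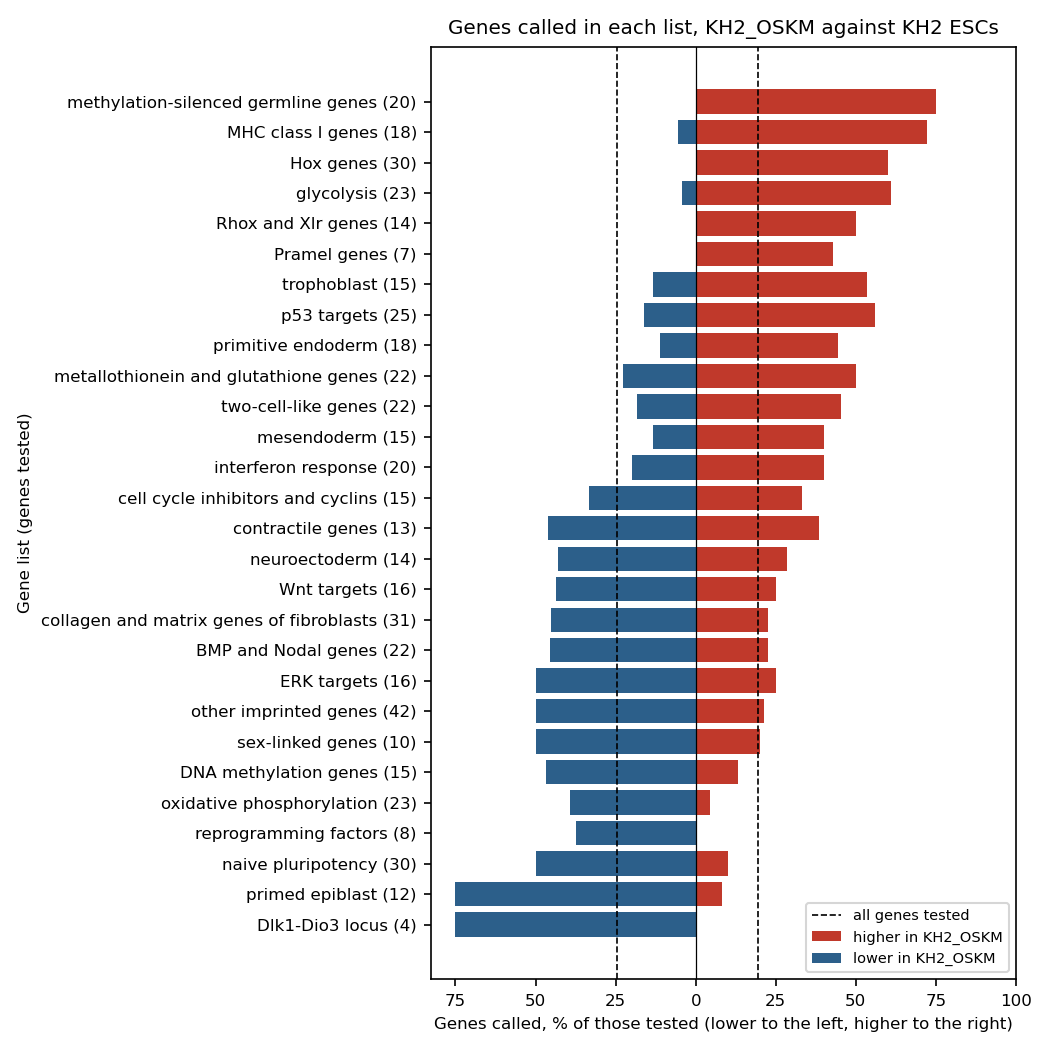
Share of the tested genes of each list that were called higher (red, to the right) or lower (blue, to the left) in KH2_OSKM than in KH2 ESCs, in percent, with the number of genes tested in brackets; dashed lines mark all genes (19.4% higher, 24.6% lower). Germline, MHC class I, Hox and glycolysis genes lie to the right, and primed epiblast and naive pluripotency genes to the left.

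Of the 8 factors of the OSKM and SNEL sets (SNEL is Sall4, Nanog, Esrrb and Lin28), 0 were called higher and 3 lower, against 19.4% and 24.6% of all genes. Pou5f1, the core pluripotency factor, was at 6.60 and 6.35 on the KH2_OSKM arrays, against 6.42 and 6.28 on the KH2 ESCs arrays. Sox2, its partner on DNA, was at 3.70 and 3.78 in KH2_OSKM and 3.69 and 3.70 in KH2 ESCs. Nanog was at 6.88 and 6.88 in KH2_OSKM and at 6.95 and 7.03 in KH2 ESCs. The lines overlapped for Pou5f1 and Sox2, and the differences were 0.12 (SE 0.18, adjusted p = 0.632), 0.04 (SE 0.09, adjusted p = 0.751) and -0.11 (SE 0.05, adjusted p = 0.132). In the authors' deposited values Pou5f1 was higher by 0.54 (adjusted p = 0.0324). Esrrb differed by -0.08 (SE 0.10) and Klf4 by -0.10 (SE 0.08), and neither passed the test.

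Lin28a, an RNA-binding protein that blocks let-7 maturation, was at 2.80 and 2.68 in KH2_OSKM, against 5.44 and 5.37 in KH2 ESCs. That is a difference of -2.66 (SE 0.10, adjusted p = 3.06e-09). Myc, the growth-promoting member of OSKM, was at -2.17 and -2.25 in KH2_OSKM, against -0.44 and -0.49 in KH2 ESCs, a difference of -1.75 (SE 0.06, adjusted p = 1.09e-09). Sall4, a zinc-finger factor, was lower by less, at 3.86 and 3.95 in KH2_OSKM and 4.42 and 4.28 in KH2 ESCs (difference -0.44, SE 0.08, adjusted p = 0.000992). For these 3 genes both KH2_OSKM arrays were below both KH2 ESCs arrays. The probes do not separate transcripts of introduced factors from those of the cell's own genes.

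Among 30 naive pluripotency genes, all above background on all 4 arrays, 3 were called higher and 15 lower, with a median of -0.39. Lefty1 and Lefty2, secreted inhibitors of Nodal, had the largest differences. Lefty1 was at -0.26 and -0.43 in KH2_OSKM, against 3.52 and 3.39 in KH2 ESCs (difference -3.80, SE 0.09, adjusted p = 1.28e-10). Lefty2 was at 1.72 and 1.74 in KH2_OSKM, against 5.03 and 4.85 in KH2 ESCs (difference -3.21, SE 0.10). Gbx2, a homeobox factor that sustains self-renewal, was at -0.75 and -0.97 in KH2_OSKM and 1.39 and 1.31 in KH2 ESCs (difference -2.21, SE 0.07). Dppa2 and Dppa4, partner proteins at chromatin, differed by -1.15 and -0.98. Tdgf1, a Nodal co-receptor, Fbxo15 and Fgf4 were the 3 genes called higher, by 0.82, 0.56 and 0.21.

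Of 12 primed epiblast genes tested, 9 were called lower and 1 higher, with a median of -0.90. Dnmt3b, a de novo DNA methyltransferase, was at 2.45 and 2.46 in KH2_OSKM, against 5.21 and 5.27 in KH2 ESCs (difference -2.78, SE 0.08, adjusted p = 4.63e-10). Its 3 probes ranged from -2.78 to -2.57. The Wnt effector Lef1 was at -1.94 and -2.55 in KH2_OSKM and -0.39 and -0.55 in KH2 ESCs (difference -1.78, SE 0.19). Fgf5, a marker of the primed state, was not well above background on either KH2_OSKM array and was at least 3.03-fold lower there (adjusted p = 3.61e-05). Otx2, a factor of the same state, went the other way, at 2.72 and 2.60 in KH2_OSKM and 1.59 and 1.65 in KH2 ESCs (difference 1.04, SE 0.07).

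**Figure D2:**
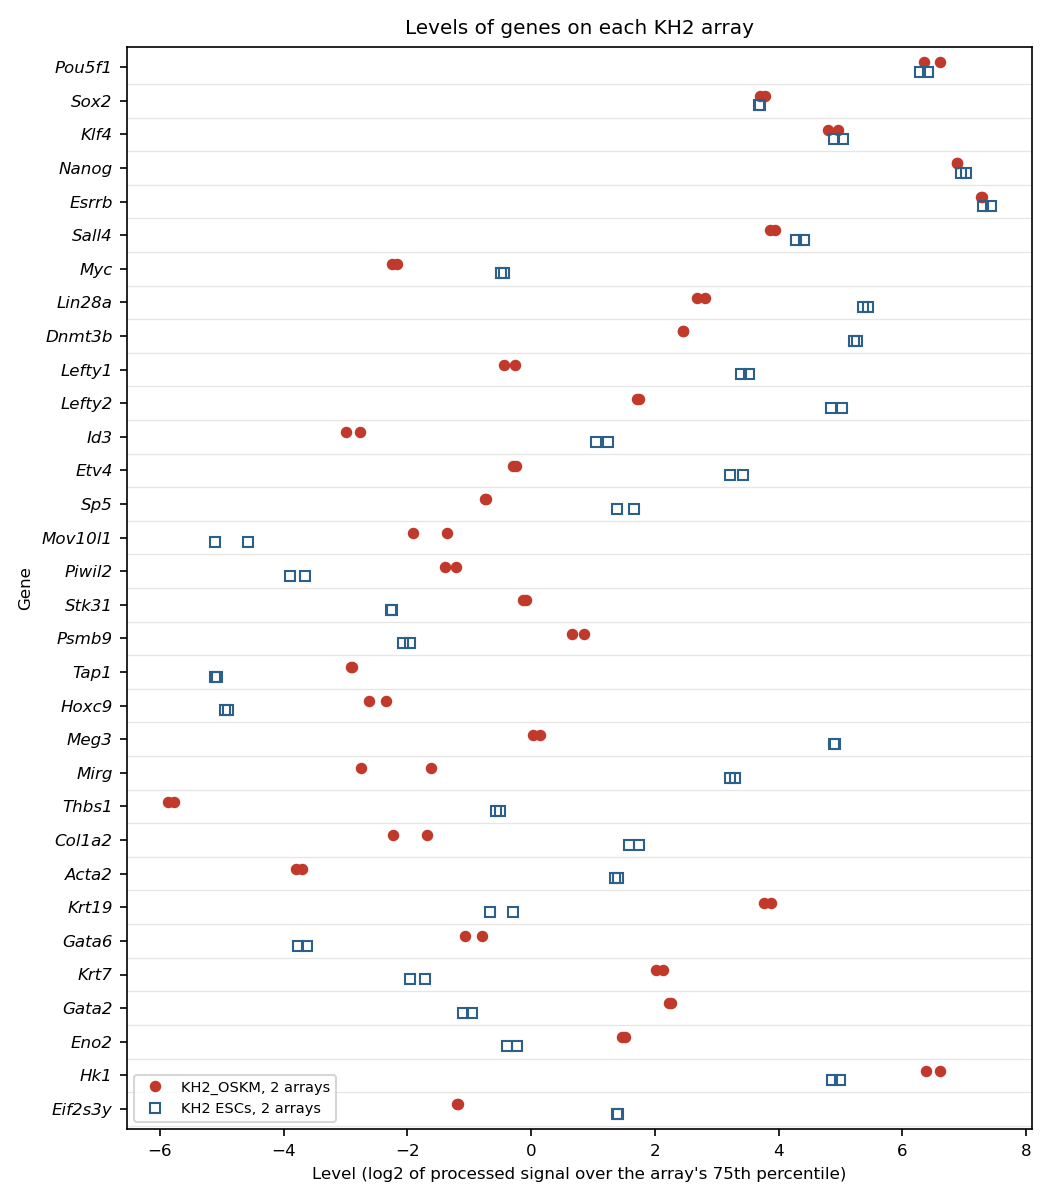
Level of selected genes on each array (log2 of the processed signal over the array's 75th percentile), with filled red circles for the 2 KH2_OSKM arrays and open blue squares for the 2 KH2 ESCs arrays; levels are to be read within a gene. Pou5f1 and Sox2 overlap between the lines, while Lin28a, Lefty1, Id3 and Meg3 are lower and Krt19, Gata2 and Psmb9 higher in KH2_OSKM.

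ERK target genes divided. Of 16 tested, 8 were called lower and 4 higher (median -0.44). Etv4, an ETS factor, was at -0.25 and -0.29 in KH2_OSKM, against 3.42 and 3.21 in KH2 ESCs (difference -3.59, SE 0.12, adjusted p = 1.04e-09). Dusp6, an ERK phosphatase induced by ERK itself, was at 0.02 and -0.11 in KH2_OSKM and 2.21 and 2.33 in KH2 ESCs (difference -2.31, SE 0.08). The immediate early gene Fos was higher, at 0.20 and 0.31 in KH2_OSKM, against -2.07 and -2.02 in KH2 ESCs (difference 2.30, SE 0.07). Egr1, another immediate early gene, was higher by 1.43.

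Of 22 BMP and Nodal genes, 10 were called lower and 5 higher (median -0.78). Id3, a target of BMP signalling that blocks differentiation factors, was at -2.99 and -2.76 in KH2_OSKM, against 1.24 and 1.06 in KH2 ESCs (difference -4.03, SE 0.11, adjusted p = 3.3e-10). Its relatives Id1 and Id4 were lower by 2.44 and 1.55 on the log2 scale, whereas Id2 was higher by 2.19. The ligand Bmp4 was at -0.17 and -0.28 in KH2_OSKM and 2.35 and 2.31 in KH2 ESCs (difference -2.55, SE 0.08), and the ligand Bmp7 was higher by 2.28. Grem1, a secreted BMP antagonist, was below background on both KH2_OSKM arrays and at least 3.97-fold lower there (adjusted p = 2.27e-06). Ligands and Id genes of this pathway thus included called members in both directions.

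Of 16 Wnt targets, 7 were called lower and 4 higher (median -0.92, and -0.41 within the slide that holds 1 array of each line). Sp5, a direct Wnt target, was at -0.75 and -0.72 in KH2_OSKM and 1.66 and 1.39 in KH2 ESCs (difference -2.26, SE 0.10). Cdx1, a homeobox target of Wnt, was at 4.36 and 4.52 in KH2_OSKM and 2.51 and 2.60 in KH2 ESCs (difference 1.89, SE 0.08). Dkk1, a Wnt antagonist, was below background in KH2_OSKM and at least 3.1-fold lower (adjusted p = 0.00903). Its call was lost without KH2_OSKM array 2 (-1.76, adjusted p = 0.0575) and without KH2 ESCs array 1 (-1.38, adjusted p = 0.097).

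Of 15 cyclins and cell cycle inhibitors, 5 were called higher and 5 lower. The G1 cyclin Ccnd1 was at 2.01 and 1.93 in KH2_OSKM and 3.88 and 3.97 in KH2 ESCs (difference -1.95, SE 0.07). Ccnd2 was at -3.92 and -4.80 in KH2_OSKM and -1.23 and -1.04 in KH2 ESCs (difference -3.22, SE 0.28). Ccne1, the cyclin partner of Cdk2, was at 4.62 and 4.53 in KH2_OSKM and 5.91 and 5.89 in KH2 ESCs (difference -1.32, SE 0.06). The imprinted inhibitor Cdkn1c was also lower (difference -1.31, SE 0.09), while the inhibitor Cdkn1a was higher by 0.79.

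Among 15 DNA methylation genes, 7 were called lower and 2 higher (median -0.23). Beside Dnmt3b, the lower genes included Prmt6, an arginine methyltransferase, at -1.14 and -1.19 in KH2_OSKM and 0.69 and 0.85 in KH2 ESCs (difference -1.94, SE 0.08). The 3 probes of Prmt6 did not agree and ranged from -1.94 to 0.50. Dppa3, which protects the maternal genome from demethylation, was at 0.71 and 0.70 in KH2_OSKM and 1.73 and 2.04 in KH2 ESCs (difference -1.18, SE 0.16). Trim28, a co-repressor that keeps imprints, was lower by 0.71 on the log2 scale (SE 0.06). Dnmt1, the maintenance methyltransferase, and its partner Uhrf1 differed by 0.03 (SE 0.12) and 0.02 (SE 0.08), and neither passed the test. Dnmt3l, a cofactor of the de novo enzymes that is itself a germline gene, was higher by 0.67.

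Genes that DNA methylation silences outside the germline were higher as a list: 15 of 20 tested were called higher and 0 lower, against 19.4% and 24.6% of all genes, with a median of 1.60. Without KH2_OSKM array 1, 15 passed the test as higher and the median was 1.52. Mov10l1, a helicase of the piRNA pathway, was at -1.91 and -1.36 in KH2_OSKM, against -5.11 and -4.58 in KH2 ESCs (difference 3.21, SE 0.18, adjusted p = 6.04e-08). Piwil2, a piRNA-binding Argonaute protein, was at -1.21 and -1.39 in KH2_OSKM and -3.90 and -3.65 in KH2 ESCs (difference 2.47, SE 0.11). Stk31, a germ cell kinase, was at -0.09 and -0.13 in KH2_OSKM and -2.25 and -2.27 in KH2 ESCs (difference 2.15, SE 0.14). Tex101, a germ cell surface protein, was at -1.95 and -2.24 in KH2_OSKM and -5.28 and -4.24 in KH2 ESCs (difference 2.67, SE 0.35), with 1 KH2 ESCs array below background. Mael was at 1.47 and 1.43 in KH2_OSKM and -0.32 and -0.26 in KH2 ESCs (difference 1.74, SE 0.08). For all 15 called genes both KH2_OSKM arrays were above both KH2 ESCs arrays, as the call requires.

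Probes of the Zscan4, Usp17l, Rhox, Xlr, Pramel and H2 families can cross-hybridize between near-identical members, so their single members are uncertain. Of 14 Rhox and Xlr genes tested, 7 were called higher and 0 lower (median 1.43). With members that 1 line did not show above background set to their bounds, the median was 0.57. Without KH2_OSKM array 1 the median was 0.89. Xlr3b, a lymphoid-regulated gene of the X chromosome that is imprinted in brain, was at -1.71 and -1.70 in KH2_OSKM and -4.90 and -4.81 in KH2 ESCs (difference 3.15, SE 0.17). The homeobox gene Rhox10 was at -2.46 and -3.12 in KH2_OSKM and -5.04 and -4.92 in KH2 ESCs (difference 2.19, SE 0.25). Xlr4a and Xlr3a were above background on KH2_OSKM array 1 alone, so their computed folds of 3.24 and 1.36 are no strict bounds. Without that array their differences were 1.48 (adjusted p = 0.223) and 1.63 (adjusted p = 0.0765). Both calls were also lost without KH2 ESCs array 2, at 1.33 (adjusted p = 0.249) and 1.91 (adjusted p = 0.0634), and with normexp background correction, at 0.59 (adjusted p = 0.127) and 0.29 (adjusted p = 0.204). Xlr3a lost it as well after quantile normalization (1.09, adjusted p = 0.0596) and in the authors' deposited values (0.56, adjusted p = 0.0594).

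Of 22 genes of the 2-cell-like state, a transient state of ESC cultures with an early embryonic programme, 10 were called higher and 4 lower. Their median was 0.77, 0.51 without KH2_OSKM array 1, and 0.17 with members at their bounds. Zscan4e was at -1.06 and -1.28 in KH2_OSKM and -4.12 and -4.42 in KH2 ESCs (difference 3.10, SE 0.15), and Zscan4f differed by 3.08 (SE 0.37). Gm8300, a gene of the same list, was at -4.16 and -4.62 in KH2_OSKM and below background in KH2 ESCs, at least 2.98-fold higher (adjusted p = 1.3e-05). Usp17lb, a deubiquitinase gene, was at -5.68 and -1.32 in KH2_OSKM and below background in KH2 ESCs. With 1 KH2_OSKM array above background, its computed fold of 5.52 is no strict bound. Its fitted difference was 6.39 without KH2_OSKM array 1 and 2.04 without array 2, and its call was lost after quantile normalization (adjusted p = 0.113) and in the authors' deposited values (adjusted p = 0.057). Of 7 Pramel genes, 3 were called higher and 0 lower. Pramel14 was at 0.74 and 0.53 in KH2_OSKM and -4.42 and -3.98 in KH2 ESCs (difference 4.84, SE 0.16), Pramel16 at least 5.67-fold higher, and Pramel13 higher by 0.97.

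MHC class I genes, whose products show peptides on the cell surface, were higher together. Of 18 tested, 13 were called higher and 1 lower (median 1.35). Psmb9, an immunoproteasome subunit, was at 0.86 and 0.66 in KH2_OSKM and -1.95 and -2.07 in KH2 ESCs (difference 2.77, SE 0.12, adjusted p = 5.53e-09). The peptide transporter subunits Tap1 and Tap2 were higher by 2.19 (SE 0.07) and 2.28 (SE 0.11). Tap1 was at -2.89 and -2.92 in KH2_OSKM and -5.08 and -5.11 in KH2 ESCs. The class I chain H2-Q7 was at 2.10 and 2.10 in KH2_OSKM and 0.39 and 0.25 in KH2 ESCs (difference 1.78, SE 0.08), and B2m, the shared light chain, was higher by 1.39.

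Of 20 interferon response genes, by comparison, 8 were called higher and 4 lower (median 0.34, and 0.14 without KH2_OSKM array 1). Ddx58, the RNA sensor RIG-I, was at 1.35 and 1.35 in KH2_OSKM and 3.81 and 3.66 in KH2 ESCs (difference -2.39, SE 0.06). Oasl2 was at -3.70 and -3.89 in KH2_OSKM and -6.57 and -5.47 in KH2 ESCs (difference 2.23, SE 0.38). Only 1 KH2 ESCs array was above background for Oasl2. Mx2, an antiviral GTPase, was at least 3.11-fold higher. Its call was lost without KH2_OSKM array 1 (1.14, adjusted p = 0.204), without KH2 ESCs array 1 (2.02, adjusted p = 0.0775) and without KH2 ESCs array 2 (2.13, adjusted p = 0.0658), and with normexp (0.49, adjusted p = 0.0946). The sensor gene Ifih1 was not well above background on any of the 4 arrays, so no fold is given.

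Hox genes are developmental regulators of the body axis. Of 30 tested, 18 were called higher and 0 lower (median 1.73, and 1.12 with members at their bounds), and 15 passed the test as higher without KH2_OSKM array 1 (median 1.27). Hoxd9 was at -2.64 and -3.82 in KH2_OSKM and -7.03 and -5.99 in KH2 ESCs (difference 3.28, SE 0.46), with 1 KH2 ESCs array above background. Hoxd4 was at -0.48 and -1.25 in KH2_OSKM and -3.45 and -3.40 in KH2 ESCs (difference 2.56, SE 0.30). Hoxc9 was at -2.34 and -2.62 in KH2_OSKM and -4.91 and -4.94 in KH2 ESCs (difference 2.44, SE 0.26). Hoxa10 was above background on KH2_OSKM array 1 alone, so its computed fold of 2.81 is no strict bound. Its fitted difference without that array was 1.63. With normexp it was 0.51 and not called (adjusted p = 0.14).

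In the Dlk1-Dio3 locus, the noncoding RNAs whose probes are printed above were lower in KH2_OSKM. Meg3 was at 0.14 and 0.04 in KH2_OSKM, against 4.89 and 4.92 in KH2 ESCs (difference -4.82, SE 0.09, adjusted p = 2.72e-11). Its 3 probes ranged from -5.26 to -2.82. Mirg was at -1.62 and -2.75 in KH2_OSKM, against 3.30 and 3.21 in KH2 ESCs (difference -5.44, SE 0.25, adjusted p = 1.23e-08). 6430411K18Rik was below background on both KH2_OSKM arrays and at -0.93 and -1.11 in KH2 ESCs, at least 24.4-fold lower (adjusted p = 6.04e-10). The paternally read protein-coding genes at the ends of the locus moved little. Dlk1, a membrane ligand, was at -1.83 and -2.10 in KH2_OSKM and -1.57 and -1.52 in KH2 ESCs (difference -0.42, SE 0.16, adjusted p = 0.0476). Its second probe showed 0.71, and the call was lost without KH2_OSKM array 2 (-0.28, adjusted p = 0.252), KH2 ESCs array 1 (adjusted p = 0.112) or KH2 ESCs array 2 (adjusted p = 0.157), without a filter on dim probes (adjusted p = 0.0708) and with array weights (adjusted p = 0.0976). Dio3, a deiodinase, differed by -0.08 (SE 0.11, adjusted p = 0.592).

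All probes of the locus were then followed along the chromosome. Of 119 probes over 820 kb (mm9), 85 passed the filter, and 61 of these lay from Meg3 to Mirg. Among the 61, 36 were lower in KH2_OSKM without overlap and 3 higher, against 37.5% and 28.3% of all genes, with a median of -1.66. On the plus strand, which Meg3 and Mirg are read from, 30 of 44 were lower (median -1.76), and on the minus strand 6 of 17 (median -0.34). Of the 24 probes outside that stretch, 5 were lower and 1 higher (median 0.20). Probes below background in a KH2 line enter these medians at their dim signal.

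**Figure D3:**
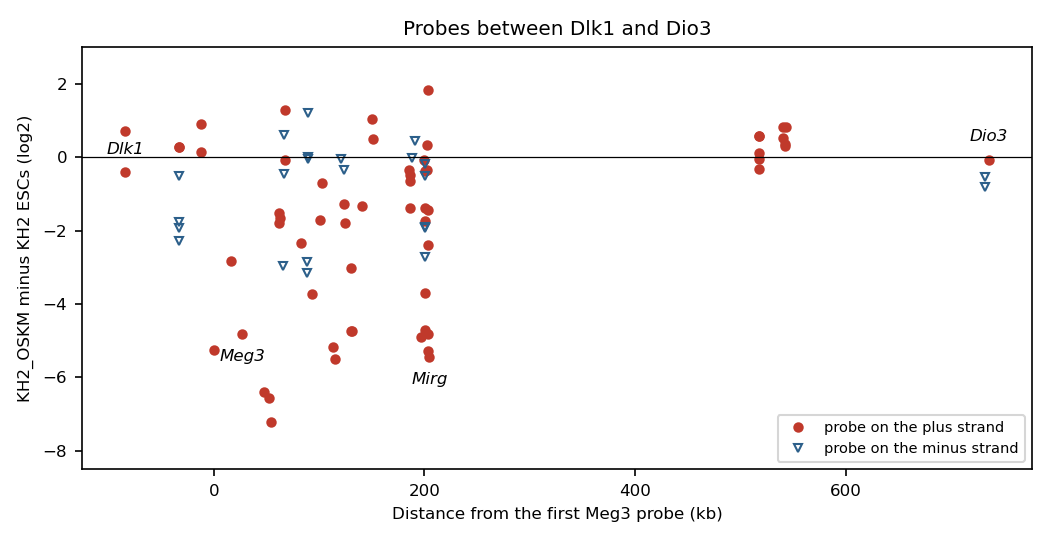
Difference between KH2_OSKM and KH2 ESCs (log2) of each of the 85 probes between Dlk1 and Dio3, against the distance from the first Meg3 probe in kb; filled red circles are probes on the plus strand and open blue triangles probes on the minus strand. The lowest values, down to -7.21, lie between Meg3 and Mirg, and the probes of Dlk1 (-0.42 and 0.71) and Dio3 (-0.08) lie near 0. Values of probes below background in KH2_OSKM, that of -7.21 among them, are no measured sizes.

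Of 42 other imprinted genes, 21 were called lower and 9 higher (median -0.39). Nnat, a neuronatin of the endoplasmic reticulum, was at -3.33 and -6.04 in KH2_OSKM and -1.61 and -1.59 in KH2 ESCs (difference -3.08, SE 0.65). Only 1 KH2_OSKM array was above background for Nnat, and its difference was -1.73 without KH2_OSKM array 2. Sgce, a sarcoglycan, was at -0.04 and -0.02 in KH2_OSKM and -2.51 and -2.67 in KH2 ESCs (difference 2.56, SE 0.15). The amino acid transporter gene Slc38a4 was at 3.16 and 3.30 in KH2_OSKM and 0.89 and 0.75 in KH2 ESCs (difference 2.41, SE 0.07). The growth factor gene Igf2 (difference -2.09) did not pass the test, while H19 (-1.20), Grb10 (-1.85) and Peg3 (-0.94) were called lower.

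Fibroblast matrix genes were split, and the largest differences among them were falls. Of 31 tested, 14 were called lower and 7 higher (median -0.66). Ccdc80 and Thbs1, secreted matrix proteins, were below background on both KH2_OSKM arrays and at least 14.7-fold and at least 34.1-fold lower. Thbs1 was at -0.56 and -0.51 in KH2 ESCs, and Ccdc80 at -1.72 and -1.78 there. The fibrillar collagen genes Col3a1 and Col1a2 differed by -3.90 (SE 0.29) and -3.62 (SE 0.18). Col1a2 was at -1.69 and -2.23 in KH2_OSKM and 1.75 and 1.58 in KH2 ESCs. Col1a1, its partner chain, was at -2.10 and -1.97 in KH2_OSKM and 1.46 and 1.53 in KH2 ESCs (adjusted p = 5.66e-10). In the other direction, the receptor gene Pdgfrb was at 0.47 and 0.35 in KH2_OSKM and -3.02 and -2.55 in KH2 ESCs (difference 3.19, SE 0.20).

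Of 11 fibroblast markers, 9 were called lower and 1 (Pdgfrb) higher in KH2_OSKM. All 11 were well above background on both KH2 ESCs arrays, and 7 of 11 on both KH2_OSKM arrays, where Dcn, Lum, Postn and Thbs1 were below background. Their summed signal, in units of the 75th percentile, was 14.2 and 14 on the KH2_OSKM arrays, against 54.9 and 55.0 on the KH2 ESCs arrays. Fewer cells of a type and less RNA per cell cannot be told apart in these bulk samples. The part of such cells in the differences of matrix genes was not tested. Of 10 pluripotency markers, all were above background on all 4 arrays, and their summed signal was 829 and 852 in KH2_OSKM and 943 and 930 in KH2 ESCs.

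Contractile genes were split as well, with 6 of 13 called lower and 5 higher; their median was 0.61, and -0.83 without KH2_OSKM array 1. Acta2, smooth muscle actin, was at -3.80 and -3.71 in KH2_OSKM, against 1.40 and 1.35 in KH2 ESCs (difference -5.13, SE 0.21, adjusted p = 5.34e-09). The actin-binding protein gene Tagln was at -1.17 and -1.15 in KH2_OSKM and 1.73 and 1.65 in KH2 ESCs (difference -2.85, SE 0.14). Another smooth muscle actin gene, Actg2, was at least 6.15-fold lower. Des, the muscle intermediate filament desmin, was at -0.02 and -0.02 in KH2_OSKM and -2.60 and -2.55 in KH2 ESCs (difference 2.56, SE 0.09).

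Lineage genes were called in both directions. Of 18 primitive endoderm genes, 8 were called higher and 2 lower (median 0.54, and 0.32 without KH2_OSKM array 1). Krt19, an epithelial keratin, was at 3.88 and 3.77 in KH2_OSKM and -0.30 and -0.66 in KH2 ESCs (difference 4.30, SE 0.16, adjusted p = 2.72e-09). The nuclear receptor gene Hnf4a was at -2.01 and -2.39 in KH2_OSKM and -5.43 and -5.64 in KH2 ESCs (difference 3.34, SE 0.21). Gata6, a factor that drives primitive endoderm, was at -0.80 and -1.07 in KH2_OSKM and -3.77 and -3.62 in KH2 ESCs (difference 2.76, SE 0.13). Sox7, an endoderm factor, was lower, at -4.92 and -6.36 in KH2_OSKM and -2.66 and -2.58 in KH2 ESCs (difference -3.02, SE 0.46). Only 1 KH2_OSKM array was above background for Sox7. Of the 7 primitive endoderm markers, a separate list, 3 were called higher and 2 lower. Their summed signal was 22.2 and 21.8 in KH2_OSKM and 20.6 and 19.5 in KH2 ESCs.

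Of 15 trophoblast genes, 8 were called higher and 2 lower (median 0.94). Krt7, a keratin of trophoblast and other epithelia, was at 2.13 and 2.01 in KH2_OSKM and -1.72 and -1.96 in KH2 ESCs (difference 3.91, SE 0.11, adjusted p = 4.1e-10). Gata2, a trophoblast and blood factor, was at 2.26 and 2.23 in KH2_OSKM and -0.96 and -1.11 in KH2 ESCs (difference 3.28, SE 0.08). The keratin gene Krt18 was at 4.33 and 4.28 in KH2_OSKM and 2.71 and 2.64 in KH2 ESCs (difference 1.63, SE 0.08). Hand1 was above background on KH2_OSKM array 1 alone, so its computed fold of 1.74 is no strict bound. Its call was lost with normexp (0.27, adjusted p = 0.674), after quantile normalization (1.20, adjusted p = 0.292), in the authors' deposited values (0.34, adjusted p = 0.628) and with the slide as a block (adjusted p = 0.0524). It was also lost without KH2_OSKM array 1 (adjusted p = 0.0776), KH2_OSKM array 2 (adjusted p = 0.0539) or KH2 ESCs array 1 (adjusted p = 0.103). Cdx2, a defining trophoblast factor, differed by -1.76 and did not pass the test. Of 4 trophoblast markers tested, 1 was called higher and 1 lower. Their summed signal was 15.7 and 15.7 in KH2_OSKM and 9.11 and 8.64 in KH2 ESCs.

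Mesendoderm genes counted 6 higher and 2 lower of 15 tested (median 0.31, and 0.14 without KH2_OSKM array 1). Evx1, a homeobox factor, was below background in KH2_OSKM and at least 5.28-fold lower there. Of 14 neuroectoderm genes, 6 were called lower and 4 higher (median -0.28). Of 4 neuroectoderm markers, 2 were called higher and 2 lower. Their summed signal was 4.85 and 5.15 in KH2_OSKM and 7.34 and 7.90 in KH2 ESCs. Tubb3, a neuronal tubulin, was at -1.25 and -1.06 in KH2_OSKM and 2.30 and 2.54 in KH2 ESCs (difference -3.58, SE 0.15). The factor gene Sox11 differed by -1.78 (SE 0.15), and its other probe by -0.82. Pax7 was at -3.61 and -3.63 in KH2_OSKM and -5.65 and -4.53 in KH2 ESCs, with 1 KH2 ESCs array above background. Its difference was 1.47, or 0.90 without KH2 ESCs array 1. The Pax7 call was lost after quantile normalization (0.97, adjusted p = 0.0716) and in the authors' deposited values (0.46, adjusted p = 0.0808). Pax6, an eye and neural factor, was at -5.37 and -7.33 in KH2_OSKM and -4.44 and -4.37 in KH2 ESCs. It was above background on 1 KH2_OSKM array, its difference was -1.95 (SE 0.54), and its call was lost without KH2_OSKM array 2 (-0.97, adjusted p = 0.103) or KH2 ESCs array 2 (-1.91, adjusted p = 0.052). Without KH2_OSKM array 1 it was -2.92, and with normexp -0.55 (adjusted p = 0.0819).

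Glycolysis genes were higher as a list, with 14 of 23 called higher and 1 lower and all 23 above background on all 4 arrays (median 0.51). Hk1, a hexokinase at the entry of the pathway, was at 6.61 and 6.38 in KH2_OSKM and 4.98 and 4.87 in KH2 ESCs (difference 1.57, SE 0.09). Pfkfb3, which makes the activator of phosphofructokinase, was at 3.06 and 2.99 in KH2_OSKM and 1.33 and 1.22 in KH2 ESCs (difference 1.76, SE 0.06, adjusted p = 1.81e-09). The enolase gene Eno2 was at 1.52 and 1.46 in KH2_OSKM and -0.22 and -0.38 in KH2 ESCs (difference 1.80, SE 0.08). The muscle phosphoglycerate mutase gene Pgam2 was higher by 1.47 (SE 0.09). The enzymes Aldoa and Ldha differed by -0.07 and -0.06, and neither passed the test.

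Of 23 oxidative phosphorylation genes, 9 were called lower and 1 higher, with small differences throughout (median -0.22, range -0.45 to 0.57). Ndufv1, a complex I subunit, was at 6.46 and 6.40 in KH2_OSKM and 6.86 and 6.90 in KH2 ESCs (difference -0.45, SE 0.06). Ndufa4 and Atp5a1, subunits of the chain and of the ATP synthase, differed by -0.35 (SE 0.06) and -0.34 (SE 0.07). Both calls were lost after quantile normalization (-0.12, adjusted p = 0.095, and -0.16, adjusted p = 0.0923) and in the authors' deposited values (-0.13, adjusted p = 0.17, and -0.12, adjusted p = 0.175). Cox7a1, a complex IV subunit, was at 5.40 and 5.29 in KH2_OSKM and 4.87 and 4.67 in KH2 ESCs (difference 0.57, SE 0.10). Without KH2_OSKM array 1, 6 genes of the list passed the test as lower and 1 as higher.

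Among 25 targets of p53, the damage-response factor, 14 were called higher and 4 lower (median 0.42). Ddit4, an mTOR inhibitor induced by stress, was at 7.37 and 7.33 in KH2_OSKM and 5.92 and 6.04 in KH2 ESCs (difference 1.37, SE 0.08). Pmaip1, which encodes the cell death protein Noxa, was at 2.56 and 2.47 in KH2_OSKM and 1.20 and 1.29 in KH2 ESCs (difference 1.27, SE 0.07). Plk2, a kinase, and Polk, a DNA polymerase, were higher by 1.36 (SE 0.16) and 1.06 (SE 0.17). Bax and Gadd45a, a death effector and a growth arrest gene, were called lower, by 0.66 and 0.70 on the log2 scale.

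Of 22 metallothionein and glutathione genes, 11 were called higher and 5 lower (median 0.17). The transferase genes led the rises. Gsta2 was at -0.79 and -0.97 in KH2_OSKM and -4.85 and -4.18 in KH2 ESCs (difference 3.63, SE 0.33). Gstm5 was at 0.76 and 0.69 in KH2_OSKM and -1.29 and -1.27 in KH2 ESCs (difference 2.00, SE 0.12). Gstm3 was higher by 1.46 (SE 0.17), and Gsta1 at least 2.47-fold, with KH2 ESCs below background. The Gsta1 call was lost after quantile normalization (adjusted p = 0.0534) and in the authors' deposited values, where its difference was 0.49 (adjusted p = 0.12).

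Across all genes, those with the 12 largest fitted rises were mostly below background in KH2 ESCs, so their sizes are bounds and have no order among themselves. Trim50, a ubiquitin ligase gene, was at -1.51 and -1.70 in KH2_OSKM and at least 20.6-fold higher (adjusted p = 5.72e-10). Fhad1 and Upk3a, the second a urothelial membrane protein gene, were at least 38.9-fold and at least 33.4-fold higher. Fhad1 was at -0.39 and -0.60 in KH2_OSKM, and Upk3a at -0.78 and -1.03 there. Luzp4, Ldc1, Fam3b and Barx1 were at least 15.6-fold, 14.7-fold, 12.9-fold and 9.61-fold higher, again with both KH2 ESCs arrays below background. Trim50, Fhad1 and Upk3a were above background on both arrays of Nanog-GFP ESCs and of Oct4-GFP ESCs. Luzp4, Ldc1, Fam3b and Barx1 were above it on both Nanog-GFP ESCs arrays, and of these only Fam3b on an Oct4-GFP ESCs array. Of the genes given next, Alox12b, Stab2 and H2-Oa were above it on both arrays of both these lines. Tc2n was above it on none of them, and Myl1 on 1 Oct4-GFP ESCs array.

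Tc2n and Myl1 were also bounded, at least 18.3-fold and at least 13.1-fold higher, but their KH2_OSKM arrays stood far apart. Tc2n was at -4.20 and 0.66, and Myl1, a muscle myosin light chain, at -4.56 and 0.05. Without KH2_OSKM array 2 their fitted differences were 3.31 and 3.37, against 5.74 and 5.67 with it. Alox12b, a lipoxygenase of the skin barrier, was measured in both lines, at 3.45 and 3.41 in KH2_OSKM and -2.10 and -2.61 in KH2 ESCs (difference 5.79, SE 0.24, adjusted p = 4.56e-09). Its second probe differed by -0.60. Stab2, a scavenger receptor gene, was at 0.15 and 0.15 in KH2_OSKM and -4.80 and -5.17 in KH2 ESCs (difference 5.14, SE 0.18). H2-Oa, a class II MHC gene, was at -0.41 and -0.62 in KH2_OSKM and -5.66 and -5.56 in KH2 ESCs (difference 5.10, SE 0.23), with 1 KH2 ESCs array above background.

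The 12 largest fitted falls held Meg3, Mirg, 6430411K18Rik, Ccdc80, Thbs1 and Acta2, given above, and 6 further genes. Nt5e, which encodes the surface enzyme CD73, was below background in KH2_OSKM and at -1.20 and -0.86 in KH2 ESCs, at least 24.2-fold lower. Gap43, a growth cone protein, was at -5.11 and -5.51 in KH2_OSKM and -0.31 and -0.17 in KH2 ESCs (difference -5.07, SE 0.24), with 1 KH2_OSKM array above background. Cyp1b1, a cytochrome P450 gene, and Insyn2b were at least 14.8-fold and at least 12.2-fold lower. Ccn4, a matricellular protein gene, and Rsph4a, a radial spoke gene of cilia, were at least 10.9-fold and at least 9.85-fold lower. Their second probes showed differences of -3.40 and -1.65.

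Of the Y-linked genes tested, Eif2s3y and Ddx3y were above background on all 4 arrays and lower in KH2_OSKM. Eif2s3y, a translation initiation factor, was at -1.21 and -1.19 in KH2_OSKM and 1.40 and 1.39 in KH2 ESCs (difference -2.59, SE 0.11, adjusted p = 5.09e-09). Ddx3y, an RNA helicase, was at -2.59 and -2.86 in KH2_OSKM and -1.06 and -1.32 in KH2 ESCs (difference -1.53, SE 0.14). Uty was above background on 1 KH2 ESCs array alone and its call was lost with normexp background correction (-0.37, adjusted p = 0.0677), as the mean of its probes (-0.30, adjusted p = 0.84), and without KH2_OSKM array 2 (-0.72, adjusted p = 0.063) or KH2 ESCs array 2 (-0.92, adjusted p = 0.0718). Zfy1 was above background on none of the 4 arrays, so no fold is given. Xist, the RNA of the inactive X chromosome, was above background on none of the 20 arrays and was not tested. Medians of the 19 autosomes and the X chromosome, relative to all genes, ran from -0.06 to 0.10, the highest being that of chromosome 8.

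The same contrast exists in the other 2 origins with a poor OSKM line and an ESC line, Nanog-GFP OSKM#2 against Nanog-GFP ESCs and Oct4-GFP OSKM#2 against Oct4-GFP ESCs. These pairs share no array with the KH2 pair. Relative to all genes, the chromosome 8 median was 0.29 in the Nanog-GFP pair and -0.15 in the Oct4-GFP pair. That of the X chromosome was 0.11 and -0.01. Eif2s3y and Ddx3y were below background in Nanog-GFP ESCs and above it in Nanog-GFP OSKM#2. Such features of 1 pair enter the difference between origins, and their part in it was not tested. The root mean square difference was 0.95 in the KH2 pair, 0.80 in the Nanog-GFP pair and 0.73 in the Oct4-GFP pair. The gap between arrays also enters this value. Its root mean square was 0.92 in KH2_OSKM, 0.52 in Nanog-GFP OSKM#2 and 0.58 in Oct4-GFP OSKM#2, and its part was not tested. At least 2-fold and past the test were 4027 genes in the KH2 pair, 2415 in the Nanog-GFP pair and 1267 in the Oct4-GFP pair. The KH2 difference minus the mean of the other 2 passed the test in 11237 genes (41.4%), 5103 (18.8%) higher and 6134 (22.6%) lower.

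**Figure D4:**
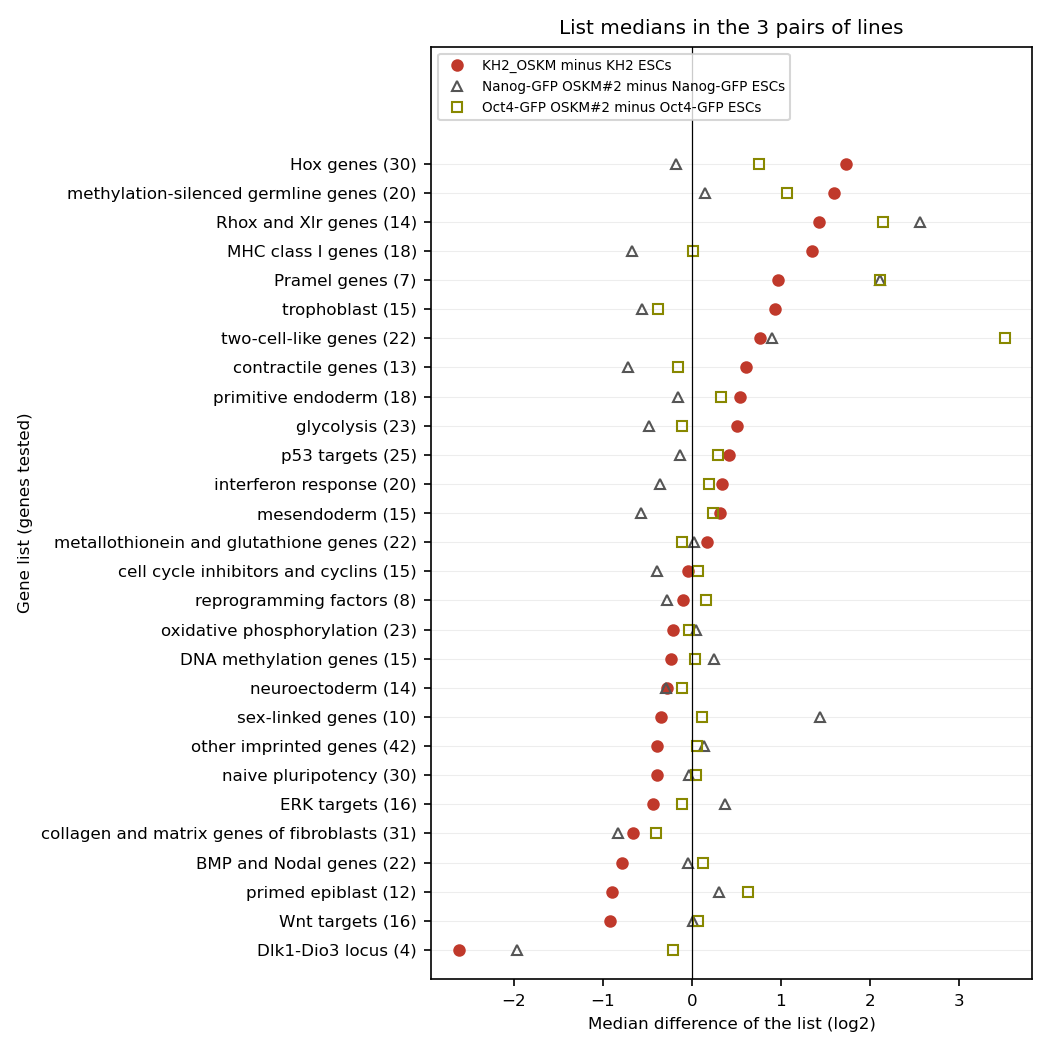
Median difference (log2) of each gene list between the poor OSKM line and the ESC line of the same origin, for the KH2 pair (filled red circles), the Nanog-GFP pair (open grey triangles) and the Oct4-GFP pair (open olive squares), with the number of genes tested in brackets. The KH2 pair lies highest for Hox, germline and MHC class I genes, while the collagen and matrix list lies below 0 in all 3 pairs.

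Lower levels of several fibroblast genes were seen in the 3 pairs. Thbs1, Ccdc80 and Grem1 were below background on both arrays of the OSKM line in each of the 3 pairs and above it on both arrays of each ESC line, so the sizes cannot be compared between origins. Col1a2, above background on all of these arrays, differed by -5.29 in the Nanog-GFP pair and -4.46 in the Oct4-GFP pair (difference between origins 1.25, adjusted p = 0.00057).

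Meg3 and Mirg were lower in all 3 pairs. Meg3 differed by -3.60 in the Nanog-GFP pair and -1.36 in the Oct4-GFP pair (difference between origins -2.33, SE 0.10, adjusted p = 9.2e-09). Mirg differed by -2.79 and -1.20 in these pairs (difference between origins -3.44, adjusted p = 2.8e-06).

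Several signalling and methylation genes had a negative difference in the KH2 pair and a positive one in the others. Dnmt3b differed by 2.34 in the Nanog-GFP pair and 0.69 in the Oct4-GFP pair (difference between origins -4.30, adjusted p = 1.1e-10). Etv4 differed by 4.38 and 1.29 in these pairs (difference between origins -6.42, adjusted p = 1e-10), and Id3 by 2.69 and 0.88 (difference between origins -5.81, adjusted p = 1.2e-10). Myc differed by 2.51 and 0.69 (difference between origins -3.34, adjusted p = 7.5e-11). For Lin28a the Nanog-GFP pair showed 1.27 and the Oct4-GFP pair -0.44 (difference between origins -3.08, adjusted p = 4.4e-09). Pou5f1, Sox2, Nanog and Esrrb did not pass the test of the difference between origins (adjusted p = 0.76, 0.23, 0.91 and 0.92). Of these, Pou5f1 passed it in the authors' deposited values (0.62, adjusted p = 0.0453), Sox2 after quantile normalization (0.33, adjusted p = 0.0377) and Nanog as the mean of its probes (0.30, adjusted p = 0.0281). Klf4 showed 0.27 (adjusted p = 0.036), and its call was lost without a filter on dim probes (adjusted p = 0.072), with the 12 arrays of the 6 lines (adjusted p = 0.0765), without KH2_OSKM array 2 (0.19, adjusted p = 0.163) and without KH2 ESCs array 1 (0.19, adjusted p = 0.183).

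Of 20 germline genes, 10 were higher and 3 lower in the difference between origins, against 18.8% and 22.6% of all genes. For MHC class I genes it was 14 higher and 1 lower of 18, and for Hox genes 14 higher and 0 lower of 30. For glycolysis it was 15 higher and 1 lower of 23. The germline median was 1.60 in the KH2 pair, 1.07 in the Oct4-GFP pair and 0.15 in the Nanog-GFP pair. That of Hox genes was 1.73, 0.75 and -0.18 in the same order. Rhox and Xlr genes had medians of 1.43, 2.15 and 2.57, with 1 higher and 4 lower between origins. Pramel genes had 0.97, 2.11 and 2.12, with 2 higher and 1 lower. Genes of the 2-cell-like list had a median of 3.51 in the Oct4-GFP pair, 0.90 in the Nanog-GFP pair and 0.77 in the KH2 pair, and 0 were higher and 7 lower in the difference between origins.

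The 6 genes with the largest fitted differences between origins each had a line below background, so their values are no measured sizes and have no order. For Eif2s3y (-8.64, adjusted p = 9.6e-12) and Ddx3y (-6.74) that line was Nanog-GFP ESCs, with mean levels of -8.10 and -8.29. Mest, an imprinted gene, showed -7.80, with Nanog-GFP ESCs and KH2_OSKM below background. Its 3 probes did not agree in the KH2 pair and ranged from -2.09 to 0.40. Nt5e, below background in KH2_OSKM, showed -7.39, with 4.30 in the Nanog-GFP pair and -0.52 in the Oct4-GFP pair. Trim50 showed 7.08, with KH2 ESCs below background, and Dusp8, a phosphatase gene, 6.84. Dusp8 was at -2.08 and -2.18 in KH2_OSKM and -5.76 and -4.96 in KH2 ESCs, with 1 KH2 ESCs array above background. It was below background in the OSKM line of both other pairs.

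The median gap between the KH2_OSKM arrays was large in dim genes and close to 0 in bright ones. For 1001 genes with a mean level from -9 to -6, array 1 was higher than array 2 by a median of 1.35, against -0.34 between the KH2 ESCs arrays. For 5629 genes from -6 to -4 the median gap was 0.90, against -0.13 in KH2 ESCs. From a level of 0 upward the medians lay between -0.01 and 0.01 in KH2_OSKM and between 0.02 and 0.04 in KH2 ESCs. Among the 22181 genes above background on all 4 arrays, array 1 was over 2-fold above array 2 in 933 genes and the reverse held in 152. In KH2 ESCs these counts were 541 and 607.

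**Figure D5:**
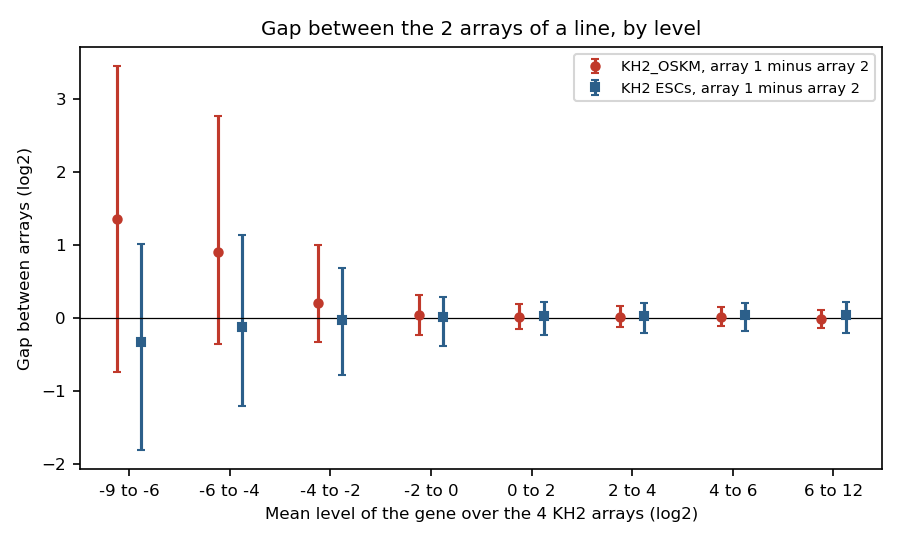
Gap between array 1 and array 2 of KH2_OSKM (red circles) and of KH2 ESCs (blue squares), in log2, for genes in 8 ranges of their mean level over the 4 arrays; points are medians and bars run from the 10th to the 90th percentile. The KH2_OSKM medians are 1.35 and 0.90 in the 2 dimmest ranges and close to 0 from a level of -2 upward.

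Large gaps between the KH2_OSKM arrays among the genes above background on all 4 arrays went both ways. Ube2dnl2 was at -0.85 and -4.71 in KH2_OSKM and -4.87 and -5.25 in KH2 ESCs. Dlx6, a homeobox gene, was at -0.98 and -4.82 in KH2_OSKM and -4.31 and -4.60 in KH2 ESCs. Here array 1 of KH2_OSKM was the high one. C4b, a complement gene, was at -3.14 and 0.13 in KH2_OSKM and -4.57 and -3.93 in KH2 ESCs. Ccdc190 was at -5.14 and -2.35 in KH2_OSKM and -4.79 and -5.70 in KH2 ESCs. For C4b and Ccdc190 array 2 was the high one. Without KH2_OSKM array 2, C4b differed by 1.11, against 2.74 with it.

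Of the 11952 genes called, 9887 passed the test in the same direction without KH2_OSKM array 1 and 10361 without KH2_OSKM array 2. With the slide as a block, 11575 did. Of the 4022 genes called and at least 2-fold apart, 3599 passed in the same direction without KH2_OSKM array 1.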

How the data were processed

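Total RNA of 10 lines was measured on 20 Agilent arrays in 1 colour. Per the file headers, Feature Extraction 10.1.1.1 wrote each processed intensity, a background-subtracted signal of 1 array (design 028005, probe coordinates in mm9). The authors' deposited log2 table was used as an alternative only; its columns have medians of 6.36 to 6.38, its values are not centred, and its exact normalization is not given in the sources used here. The submitters' processing notes name limma.

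Here log2 intensity minus each array's 75th percentile was used. Control spots and values marked as outliers were left out, and spots of a probe were averaged. Of 55681 probes, 26407 have a current RefSeq symbol. A gene was tested where its brightest probe was well above background on at least 4 arrays; no KH2 array had a saturated probe in the set. limma 3.58.1 in R 4.3.3 was fitted to all 20 arrays with 10 line means, on log2 values, and p-values were adjusted (Benjamini-Hochberg) over 27161 genes. The procedure was tested on simulated data in which a gene had the same spread in all lines. Those data do not cover the larger gap between the KH2_OSKM arrays. Where a line was below background on both arrays, the fold is an approximate bound. It is the mean of the bright line over the higher, per array, of the lowest signal well above background and the probe's own. That lowest signal was at -5.43 on KH2_OSKM array 1, where a probe at -4.83 was still not well above background. The bounds are therefore not strict and can be too high.

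Members and lists were chosen with earlier results of these data known. Genes were named by these rules: the 12 largest rises and falls, up to 4 called members of each list, the reprogramming factors, the Dlk1-Dio3 and Y-linked genes, the 6 largest differences between origins and the 5 largest gaps between the KH2_OSKM arrays. Some genes that these rules name are not reported here. Other list members were named after their values were seen. Marker lists were applied whole, and not all of them are reported. Alternatives are given in the closing section. Sequences of promoters are from RefSeq.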

Additional observations from a re-analysis of the deposited data

Results flagged for a closer look

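Many of the genes named by the rules had a difference in the KH2 pair that differed from the mean of the Nanog-GFP and Oct4-GFP pairs (limma, adjusted p under 0.05). The value in brackets is the KH2 difference minus that mean, on the log2 scale. A positive value means a KH2 difference above that mean, not a higher level in KH2_OSKM. Values of genes below background in a line depend on its dim signal and are no measured size, and the causes were not tested.

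Among the genes with the largest rises in KH2_OSKM these were Trim50 (7.08), Alox12b (6.23), Tc2n (5.53), Ldc1 (3.46), Myl1 (5.51), Luzp4 (4.99), Upk3a (3.96), Fhad1 (5.63), Fam3b (4.81), Stab2 (3.94), H2-Oa (5.07) and Barx1 (3.91). Among the largest falls they were 6430411K18Rik (-4.58), Nt5e (-7.39), Mirg (-3.44), Acta2 (-2.28), Gap43 (-6.51), Ccn4 (-4.86), Meg3 (-2.33), Cyp1b1 (-1.88), Insyn2b (-4.67) and Rsph4a (-5.12).

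Among reprogramming, naive and primed pluripotency genes they were Lin28a (-3.08), Myc (-3.34), Sall4 (-0.46), Klf4 (0.27), Lefty1 (-2.78), Lefty2 (-2.17), Gbx2 (-2.93), Dnmt3b (-4.30), Dusp6 (-3.07), Lef1 (-1.87) and Fgf5 (-2.12). Signalling and cell cycle genes held Etv4 (-6.42), Fos (3.16), Sp5 (-3.05), Dkk1 (-3.74), Id3 (-5.81), Bmp4 (-3.72), Cdx1 (3.17), Ccnd2 (-3.14), Ccnd1 (-2.63), Ccne1 (-1.92) and Cdkn1c (-0.74). DNA methylation genes held Prmt6 (-2.36), Dppa3 (1.03) and Trim28 (-1.07).

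Imprinted and X-linked genes were Nnat (-4.54), Sgce (1.61), Slc38a4 (2.76), Mest (-7.80) and Xlr3b (-1.29). Germline, 2-cell-like and Pramel genes were Mov10l1 (3.14), Piwil2 (2.52), Stk31 (1.58), Zscan4e (-1.26), Pramel14 (1.15) and Pramel16 (1.17). Zscan4e and Xlr3b have a negative value although both were higher in KH2_OSKM than in KH2 ESCs. Conversely, Dppa3, given above, and Col3a1 and Col1a2, given below, have a positive value although they were called lower in KH2_OSKM. Hox genes were Hoxd9 (1.92), Hoxa10 (2.50), Hoxd4 (2.14) and Hoxc9 (2.44). MHC class I genes were Psmb9 (2.04), Tap2 (2.19), Tap1 (1.92) and H2-Q7 (1.92), and interferon response genes Ddx58 (-3.42), Oasl2 (3.90), Mx2 (2.50) and Ifih1 (2.82).

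Matrix and contractile genes were Col3a1 (1.08), Col1a2 (1.25), Tagln (-1.75) and Des (2.11). Lineage genes were Krt19 (4.18), Hnf4a (1.34), Sox7 (-3.64), Gata6 (3.57), Evx1 (-3.29), Hand1 (2.88), Tubb3 (-3.98), Pax6 (-2.72), Sox11 (-1.84), Pax7 (2.46), Krt7 (5.18), Gata2 (5.29) and Krt18 (2.46). Targets of p53 were Ddit4 (1.58), Plk2 (0.92), Pmaip1 (1.21) and Polk (1.33). Metabolic genes were Cox7a1 (0.93), Ndufv1 (-0.55), Ndufa4 (-0.35), Eno2 (3.35), Pfkfb3 (2.16), Hk1 (1.75) and Pgam2 (1.07), and glutathione genes Gsta2 (3.44), Gsta1 (2.33), Gstm5 (3.19) and Gstm3 (2.61). Y-linked genes were Eif2s3y (-8.64), Ddx3y (-6.74) and Uty (-3.41), and the phosphatase gene Dusp8 had 6.84.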

How the results depend on the processing

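The counts past the test, 5281 higher and 6676 lower in KH2_OSKM, became 2860 higher and 2942 lower with the 4 KH2 arrays alone, a fit with fewer residual degrees of freedom. In that limma fit 26 of 132 named genes lost their calls, with unchanged differences. They included Sall4, Sox7, Hoxd9, Cox7a1, Ndufv1, Oasl2 and Actg2 (adjusted p = 0.0758, 0.0547, 0.0545, 0.0649, 0.0566, 0.0595 and 0.0524). Tc2n, Myl1, Nnat, Mest and C4b lost theirs as well (adjusted p = 0.141, 0.135, 0.15, 0.0662 and 0.247). With a 2-fold minimum, chosen after seeing the data, the called genes were 2500 higher and 1522 lower. Leaving out 1 KH2 array gave 4353 to 6288 higher and 5614 to 6280 lower, and for the difference between origins 4478 to 5969 higher and 5473 to 6122 lower. The share of calls that was higher was 44.2%, 40.9% without KH2_OSKM array 1 and 52.6% without KH2_OSKM array 2. The replicate block, with same-numbered arrays as pairs, gave 5556 higher and 7211 lower, and 5365 and 6441 between origins. No label pairs these arrays. Over the other settings (quantile normalization, normexp, the authors' table, other filters, probe means, slide as a block, array weights) the counts were 4710 to 5679 higher and 5902 to 7637 lower. Quantile normalization moved the median of all genes to -0.12 and testing without a filter to 0.20. Of 1936 values of 132 named genes, 1794 kept direction and side of the threshold, 86 lost the call and 3 gained it, 52 untested values moved, and 1 reversed: Dlk1 was 0.14 (adjusted p = 0.76) as the mean of its probes. Between origins, 278 of 294 values of 20 genes kept both. Of 420 list medians, 287 stayed within the spread between arrays. The replicate block, the 4 KH2 arrays alone and array weights leave the fitted differences unchanged. All 28 list medians thus stayed by design in each of these settings, which cannot test them. All 28 also stayed without a filter on dim probes. That setting takes a gene's brightest probe too, so it could hardly move them. Quantile normalization moved 20 of 28 list medians beyond that spread, and so did the authors' deposited values, also for 20 of 28. Dim signal limits the Hox, Xlr, 2-cell-like and Pramel lists most, and 2 arrays of 1 line limit all p-values to those arrays.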
